A study of Mus musculus with 9 samples.

Results

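Replication-dependent histone genes supply the proteins that package newly made DNA. Probes were taken as members by their gene symbol in the platform annotation, which had to be that of a clustered H2A, H2B, H3 or H4 gene, of a linker histone from H1f1 to H1f5, or of H4f16. This gave 74 distinct probes for 51 genes, out of 45281 probes on the array, of which 19281 carry the symbol of 1 gene. The family was chosen by its levels in these same 9 arrays, which were known when it was proposed. Every difference between the lines in its members is therefore given as a description, without a p-value. Counts of members past the threshold of an array-wide fit are set beside the share of all probes. They describe the members and are no test of them.

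Levels were measured with Illumina mouse bead arrays in 9 RNA samples, 3 each from 67NR, 4T07 and 4T1 tumors. The 3 lines are triple-negative mammary carcinoma lines from 1 spontaneous mouse tumor; they differ in metastatic capacity, which increases from 67NR over 4T07 to 4T1. All 3 groups received 500000 untreated cells in the mammary fat pad of female Balb/c mice with the Ub-GFP transgene, whose own cells are GFP-positive, and were left in place until the tumors measured 10 mm across on average, which took 2 to 4 weeks. Cells negative for GFP and for CD45 were then sorted, and total RNA was amplified with a kit for Illumina arrays. Neither the age of the mice nor the slide of each array is stated, and the replicates may or may not be separate mice, so the spread between replicates may be partly technical. Each group is 1 cell line, and 67NR is the shared control of 2 of the 3 comparisons.

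In nucleosomes, DNA is wrapped around an octamer of H2A, H2B, H3 and H4, and the linker histone H1 binds where DNA enters and leaves. The genes studied here lie in clusters, have no introns and are transcribed mainly in S phase, when DNA is copied. Their messages end in a stem-loop, bound by the protein Slbp, in place of a poly(A) tail, although some histone genes also give polyadenylated messages. The amplification kit primes from poly(A) tails, and how much of each histone message it picked up was not measured. Within a class the coding sequences are nearly identical, so a probe may read more than 1 gene. The annotation ties each of the 74 probes to 1 gene (0 are tied to several), but probe sequences were not used here, and the gene behind a probe's signal is therefore uncertain throughout.

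The members comprised 2 H1 genes, 15 H2A genes, 12 H2B genes, 9 H3 genes and 13 H4 genes. By chromosome, 41 genes (58 probes) lie on chromosome 13, 9 genes (14 probes) on chromosome 3 and 1 gene, H4f16, on chromosome 6. Of the genes, 32 had 1 probe, 15 had 2 and 4 had 3. A probe was kept when its detection p-value, which sets its signal against the negative controls of the array, was under 0.05 on at least 3 of the 9 arrays. By this filter 73 member probes were kept, and 54 of the 74 were detected on all 9 arrays. The probe left out, ILMN_2677231 of H2bc4, was detected on no array, with normalized log2 values of 4.57 to 5.02. A further 10 kept probes were detected on no array of at least 1 line. They passed the filter only through the lines in which they were detected, and the counts below include them. On the whole array 16025 to 17566 probes were detected per sample, the lowest correlation between samples of a line was 0.982, and the highest member intensity, 13344 to 34145, lay below the highest intensity of the same array (33312 to 58743).

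Against 67NR, the kept histone probes leaned upwards in both other lines, and the classes went different ways. Differences are on the log2 scale of normalized intensity with an offset of 16, which understates the changes of dim probes, and a probe counts as past the threshold at an adjusted p under 0.05 in a fit over all 18856 kept probes. In 4T1 against 67NR, 41 of the 73 probes were higher and 15 lower past the threshold, where the background over all kept probes was 20.9% higher and 22.8% lower (43.7% in all). The median difference was 0.57, and -0.04 over all kept probes. In 4T07 against 67NR, 26 were higher and 4 lower (background 18.7% and 20.7%, or 39.4% in all), with a median of 0.25 against -0.05 over all kept probes. In 4T1 against 4T07, 15 were higher and 7 lower (background 12% and 12.6%, or 24.6% in all), with a median of -0.06 against 0.01. The last count is the least stable: the 22 probes became 9 without 4T07 replicate 1, 10 without 4T07 replicate 2, 12 without 4T1 replicate 2 and 14 without 4T1 replicate 3. The 3 arrays of 4T1 lay above all those of 67NR at 42 probes and below them at 15 (background 25.8% and 27.9%), those of 4T07 at 30 and 10 (background 23% and 25.7%), and those of 4T1 relative to 4T07 at 19 and 14 (background 20.4% and 20.4%). With a difference of at least 1 required beside the threshold, 24 probes were past both in 4T1 against 67NR (background 19.2%), 20 in 4T07 against 67NR (background 16.8%) and 2 in 4T1 against 4T07 (background 8.62%). Since these contrasts chose the family, nothing is read from the counts.

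**Figure D1:**
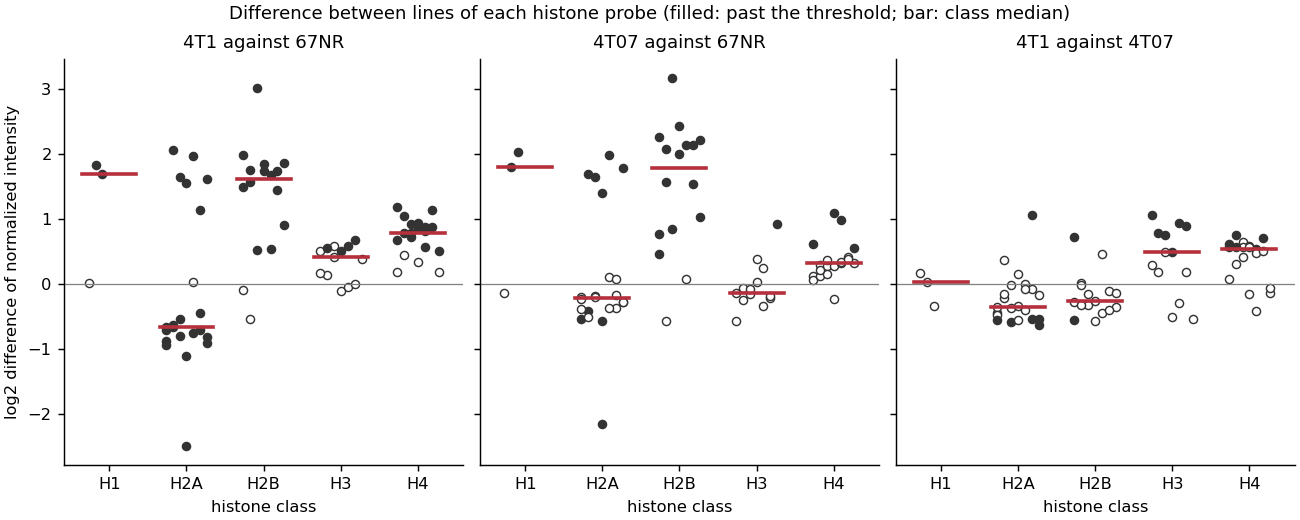
Log2 difference of normalized intensity (y axis) of each kept histone probe by class (x axis), for 4T1 and 4T07 relative to 67NR and for 4T1 relative to 4T07; each point is 1 probe, filled where it passed the threshold, and the bar is the class median; probes detected on no array of a line are drawn at their fitted value, which is not a bound. H2B sits high against 67NR in both lines (medians 1.62 and 1.78), H2A mostly below 0 (medians -0.66 and -0.22), and H4 between (0.78 and 0.32).

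H2B probes of chromosome 13 were higher in both lines than in 67NR. H2B forms a dimer with H2A and is the core histone that carries the ubiquitin mark of transcribed chromatin. Of its 16 kept probes, 14 were higher past the threshold in 4T1 and 14 in 4T07 (background 20.9% and 18.7%). In each comparison 2 did not pass it, and the medians were 1.62 and 1.78. All 13 kept H2B probes of chromosome 13 were higher in both lines. In each of them the 3 arrays of the line lay above all 3 arrays of 67NR (background 25.8% in 4T1 and 23% in 4T07). Among these, H2bc8 (ILMN_1224479) and ILMN_2676243 of H2bc6 were detected on no 67NR array. They passed the filter only through the other lines, which by itself favours a difference. At the 11 of the 13 probes detected on at least 1 array of 67NR the differences were 0.9 to 3.01 in 4T1 and 1.03 to 3.17 in 4T07. The 3 H2B probes of chromosome 3 differed by -0.54 to 0.54 in 4T1. In 4T07, H2bc21 (ILMN_1253851) and H2bc18 differed by 0.08 and 0.46, and the other H2bc21 probe was detected on no 4T07 array. Between 4T1 and 4T07 the class median was -0.26, with 1 probe higher and 1 lower (background 12% and 12.6%).

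The H2bc4 probe ILMN_1242399 had the highest difference of any kept member. The other H2bc4 probe, ILMN_2677231, was detected on no array, so the values of this gene rest on ILMN_1242399 alone. The normalized log2 intensity of ILMN_1242399 was 6.93, 6.88 and 7.29 in 67NR, 9.88, 9.99 and 10.73 in 4T07, and 10.14, 10.44 and 9.54 in 4T1. The 67NR arrays were well apart from the 6 others, among which the lines overlapped. The difference from 67NR was 3.01 ± 0.26 (SE) in 4T1 and 3.17 ± 0.26 in 4T07.

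H2bc11 (ILMN_2652511) read 8.35, 8.12 and 8.22 in 67NR, 10.44, 10.31 and 10.71 in 4T07, and 10.17, 10.44 and 10.03 in 4T1. It was higher by 1.98 ± 0.16 in 4T1 and by 2.25 ± 0.16 in 4T07. H2bc6 (ILMN_1252995) read 8.21, 7.62 and 8.07 in 67NR, 10.2, 10.37 and 10.58 in 4T07, and 9.57, 10.23 and 9.64 in 4T1. At both of these probes every 67NR array was the lower one, and 4T07 and 4T1 overlapped. The differences of this H2bc6 probe were 1.85 ± 0.21 and 2.42 ± 0.21. The H2bc6 probe ILMN_2742592 differed by 1.74 ± 0.14 in 4T1. Its 4T1 arrays lay below those of 4T07 without overlap (-0.4 ± 0.14, not past the threshold). ILMN_2676243 of H2bc6 was detected on no 67NR array and was at least 1.19-fold higher in 4T07. H2bc7 (ILMN_2719202), the H2B probe with the highest mean signal, read 8.99, 8.84 and 9.03 in 67NR, 10.91, 11.03 and 11.33 in 4T07, and 10.47, 10.91 and 10.53 in 4T1. Its differences from 67NR were 1.68 ± 0.17 and 2.14 ± 0.17.

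H2bc18 (ILMN_2817214) of chromosome 3 had another order of the lines. It read 5.3, 5.2 and 5.1 in 67NR, 5.71, 5.55 and 5.7 in 4T07, and 5.2, 4.9 and 5.22 in 4T1. The 4T07 arrays lay above those of both other lines, which overlapped, and the difference of 4T1 from 4T07 was -0.55 ± 0.14. It was no longer past the threshold without 4T07 replicate 1 (-0.52) or 4T1 replicate 2 (-0.45). H2bc8 (ILMN_1224479) was detected on no 67NR array. It read 5.06, 4.93 and 5.06 there, 5.74, 5.47 and 6.15 in 4T07, and 6.41, 6.69 and 6.42 in 4T1. Bounded by the lowest signal of a detected probe on each 67NR array, it was at least 2.58-fold higher in 4T1 and at least 1.56-fold higher in 4T07, and unlike the other H2B probes of chromosome 13 it was also higher in 4T1 than in 4T07 (0.72 ± 0.18). That H2bc8 differs from the others was not tested.

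**Figure D2:**
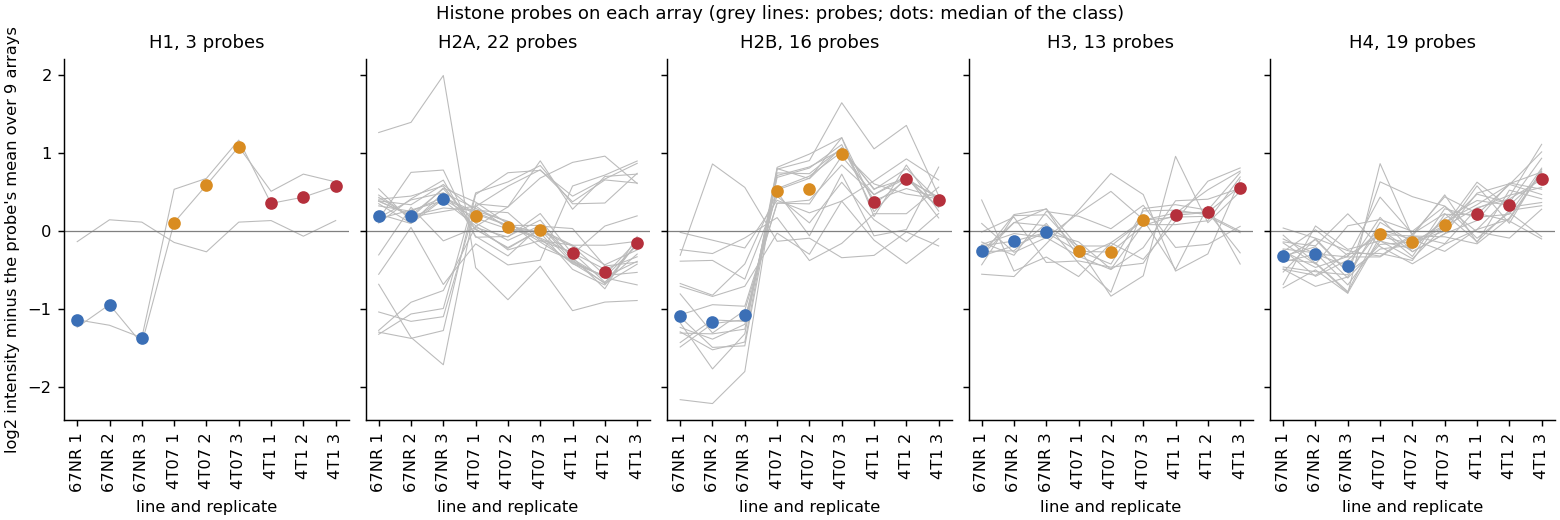
Normalized log2 intensity of each kept histone probe minus its mean over the 9 arrays (y axis), by array (x axis: line and replicate), in 1 panel per class; grey lines are probes and dots are the class median on that array (blue 67NR, orange 4T07, red 4T1). The H2B median is -1.16 to -1.08 on the 67NR arrays and 0.37 to 0.98 on the others, while the H2A median is 0.19 to 0.41 on the 67NR arrays and -0.53 to -0.15 on the 4T1 arrays.

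H2A is the dimer partner of H2B, and most of its probes were lower in 4T1 than in 67NR. Of 22 kept probes, 15 were lower and 6 higher past the threshold in 4T1 (median -0.66, background 22.8% and 20.9%). In 4T07, 4 were lower and 5 higher (median -0.22), near the background of 20.7% and 18.7%. Compared with 4T07, 4T1 had 6 H2A probes lower and 1 higher (median -0.34, background 12.6% and 12%). The last 7 probes became 2 without 4T07 replicate 1, 3 without 4T07 replicate 2 and 2 without 4T1 replicate 2. On chromosome 13, 12 of the 15 H2A probes were lower in 4T1 and the 3 exceptions were H2ac8, H2ac4 and H2ac6, whereas on chromosome 3 4 probes were higher and 3 lower. The class medians of H2A stayed below 0 and those of H2B above 0, against 67NR, under each of the 18 alternative settings tried (from -0.7 to -0.57 and from 1.08 to 1.73 in 4T1).

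H2ac11 (ILMN_2981801) had the lowest difference of the H2A probes of chromosome 13 in 4T1 against 67NR. It read 9.91, 9.86 and 10.12 in 67NR, 9.78, 9.65 and 9.32 in 4T07, and 9.15, 8.85 and 9.1 in 4T1. No array of one line overlapped with another line, and the differences from 67NR were -0.93 ± 0.16 in 4T1 and -0.38 ± 0.16 in 4T07, the second not past the threshold. The probe of H2ac24 (ILMN_2836654), with the highest mean signal of its class, read 14.66, 14.47 and 14.57 in 67NR, 14.54, 14.51 and 14.15 in 4T07, and 14, 13.62 and 13.98 in 4T1. Here 67NR and 4T07 overlapped, and 4T1 was below both, with a difference of -0.7 ± 0.16 from 67NR. H2ac10 (ILMN_1252136) was likewise lowest in 4T1, with 14.32, 14.25 and 14.43 in 67NR, 14.24, 14.07 and 14.07 in 4T07, and 13.61, 13.41 and 13.61 in 4T1, a difference of -0.59 ± 0.14 between 4T1 and 4T07. The probes of H2ac12 fell by 0.88 ± 0.16 (ILMN_1246108) and by 0.9 ± 0.16 (ILMN_2730329) in 4T1 against 67NR. The first read 12.49, 12.53 and 12.66 in 67NR, 12.11, 11.86 and 12.1 in 4T07, and 11.67, 11.42 and 11.93 in 4T1. The second read 12.7, 12.41 and 12.79 in 67NR, 12.61, 12.33 and 12.14 in 4T07, and 11.82, 11.67 and 11.71 in 4T1. In both, each 4T1 array lay below every 67NR array. H2ac21 (ILMN_2785454) of chromosome 3 read 8.38, 8.98 and 9.01 in 67NR, 8.15, 8.16 and 8.37 in 4T07, and 7.87, 7.63 and 7.54 in 4T1, without overlap of any 2 lines. Its differences from 67NR were -1.11 ± 0.19 and -0.56 ± 0.19, and the second was no longer past the threshold without 67NR replicate 2 (-0.47), 67NR replicate 3 (-0.45), 4T07 replicate 1 (-0.52) or 4T07 replicate 2 (-0.53).

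H2ac8 and H2ac4 were the H2A genes of chromosome 13 that were higher. H2ac8 (ILMN_2751102) read 5.63, 4.95 and 4.6 in 67NR, where 1 array detected it, 6.66, 6.62 and 6.99 in 4T07, and 7.19, 7.27 and 6.92 in 4T1. The 67NR arrays were below all others, by 2.06 ± 0.23 relative to 4T1 and 1.69 ± 0.23 relative to 4T07. H2ac4 (ILMN_2704873) read 5.4, 6 and 5.27 in 67NR, 5.79, 5.52 and 5.58 in 4T07, and 6.53, 6.67 and 6.85 in 4T1. Only the 4T1 arrays of H2ac4 stood apart, by 1.13 ± 0.19 from 67NR and by 1.06 ± 0.19 from 4T07.

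Several H2A and H2B genes start back to back and share the stretch of DNA between their starts. Of the member genes, 5 such pairs on chromosome 13 had both genes measured, with 163 to 248 bases between the starts in RefSeq (GRCm38.p6). In 4 of the 5 pairs the H2A probes were on the lower side and the H2B probes on the higher side in both comparisons with 67NR. H2ac11 and H2bc11 differed by -0.93 ± 0.16 and 1.98 ± 0.16 in 4T1, and H2ac15 and H2bc15 by -0.81 ± 0.17 and 1.44 ± 0.19. H2ac8 and H2bc8 were the pair in which both were higher (2.06 ± 0.23 for H2ac8). Both were dim in 67NR, where H2ac8 was detected on 1 array and H2bc8 on none. In 4T07 the H2A probes of the 4 pairs differed by -0.54 to -0.18, of which only ILMN_1246108 of H2ac12 passed the threshold (-0.54), and not without 67NR replicate 3 (-0.49) or 4T07 replicate 2 (-0.46).

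**Figure D3:**
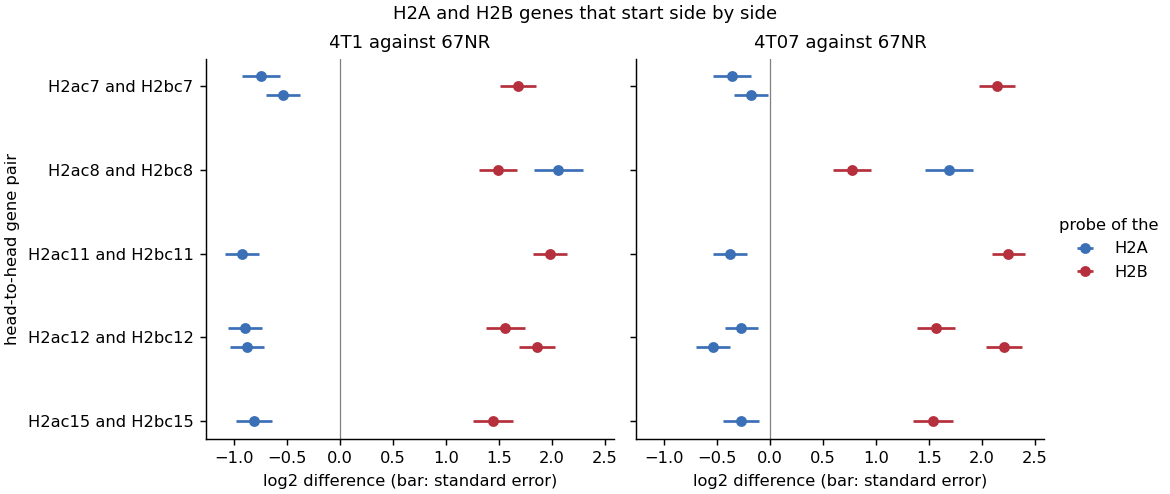
Log2 difference of normalized intensity (x axis, with its standard error as a bar) for the probes of the 5 H2A and H2B gene pairs that start back to back (y axis), in 4T1 against 67NR and 4T07 against 67NR; each point is 1 probe, blue for the H2A gene and red for the H2B gene. In 4 pairs the H2A points lie below 0 and the H2B points above 1.4, and H2ac8 with H2bc8 is the pair with both above 0; H2bc8, detected on no 67NR array, is drawn at its fitted value.

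The DNA between the starts of 2 pairs is given here, one in which the partners differed in direction and the one in which they did not, as the sequence upstream of the H2B gene. Capitals mark matches on either strand to the CCAAT box (CCAAT), to the octamer bound by Oct1, a factor known for H2B genes (ATTTGCAT), or to the TATA box (TATAAA). No motif searched contains another. The stretches are chr13:22042950-22043197 (plus strand, H2ac11 and H2bc11) and chr13:23571221-23571399 (plus strand, H2ac8 and H2bc8).
H2bc11: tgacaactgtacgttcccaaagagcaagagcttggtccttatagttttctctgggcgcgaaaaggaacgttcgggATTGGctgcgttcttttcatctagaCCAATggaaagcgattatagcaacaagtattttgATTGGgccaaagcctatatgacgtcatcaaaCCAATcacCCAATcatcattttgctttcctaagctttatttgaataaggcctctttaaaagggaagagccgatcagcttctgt
H2bc8: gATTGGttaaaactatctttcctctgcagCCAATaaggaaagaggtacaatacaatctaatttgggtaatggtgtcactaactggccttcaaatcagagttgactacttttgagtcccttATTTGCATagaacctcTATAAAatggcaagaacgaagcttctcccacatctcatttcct

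The first stretch held 5 CCAAT matches and neither of the other motifs, and the second held 2 CCAAT matches, an octamer starting 59 bases before the H2bc8 start and a TATA match starting 43 bases before it. A match is a description of the letters and not a binding site.

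Promoters were compared in the same way across the family, over the 250 bases before each start, for the 46 of 51 genes that matched an entry. In the back-to-back pairs the starts lie closer than 250 bases, so the windows of both partners cover the same stretch. A match there counts for the H2A and the H2B gene alike. The octamer was found in 6 of 10 H2B and 5 of 15 H2A promoters, and in 1.81% of 27025 promoters of all genes. CCAAT was in 15 of 15 H2A, 10 of 10 H2B, 2 of 2 H1 and 6 of 7 H3 promoters, but in 3 of 12 H4 promoters (37.5% of all). GGTCCG, the core of an element known from H4 genes and bound by Hinfp, was in 9 of 12 H4 promoters (7.69% of all). TATAAA was in 6 of 15 H2A, 5 of 10 H2B, 2 of 7 H3, 6 of 12 H4 and 1 of 2 H1 promoters (14.3% of all). AAACACA, a box known from H1 genes, was in 2 of 2 H1 promoters (7.2% of all). Among the H2B genes, the probes of the 6 genes with the octamer ranged from -0.09 to 1.86 in 4T1 against 67NR and from 0.46 to 2.42 in 4T07 against 67NR, and those of the 4 genes without it from 1.44 to 1.98 and from 1.54 to 2.25. These ranges were not tested, and they hold 2 probes detected on no 67NR array, both of genes with the octamer.

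The promoters of 3 further genes show the element of each class beside the genes whose values are given, H2bc6 (chr13:23585971-23586170, minus strand), H1f2 (chr13:23738607-23738806, plus strand) and H4c6 (chr13:23551669-23551868, minus strand), each as the 200 bases before the start in RefSeq. Capitals mark the octamer and CCAAT in H2bc6, AAACACA and CCAAT in H1f2, and GGTCCG in H4c6.
H2bc6: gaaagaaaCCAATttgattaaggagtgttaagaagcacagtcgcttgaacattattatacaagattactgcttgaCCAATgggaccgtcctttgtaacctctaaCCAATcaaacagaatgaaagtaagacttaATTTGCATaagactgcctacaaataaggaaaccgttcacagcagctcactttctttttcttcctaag
H1f2: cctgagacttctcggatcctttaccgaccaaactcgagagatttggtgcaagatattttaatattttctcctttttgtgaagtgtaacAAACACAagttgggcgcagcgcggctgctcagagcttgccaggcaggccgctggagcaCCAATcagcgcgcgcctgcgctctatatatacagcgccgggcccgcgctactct
H4c6: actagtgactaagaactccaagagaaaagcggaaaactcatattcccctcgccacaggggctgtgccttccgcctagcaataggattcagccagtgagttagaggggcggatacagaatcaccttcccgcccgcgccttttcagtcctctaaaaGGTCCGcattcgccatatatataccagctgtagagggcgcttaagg

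Probes annotated to 1 gene did not always move together, and the genes whose probes passed the threshold in opposite directions against 67NR were H2ac18 and H2ac20, H2A genes of chromosome 3. Of 18 genes with several kept probes, the probes had 1 sign in 14 genes for 4T1 against 67NR, in 12 for 4T07 against 67NR and in 14 for 4T1 against 4T07. H2ac18 had 3 probes. ILMN_1228849 read 6.83, 6.96 and 7.56 in 67NR, 5.1, 4.69 and 5.12 in 4T07, and 4.55, 4.66 and 4.68 in 4T1, where no array detected it, so that it was at least 4.2-fold lower in 4T1 than in 67NR. ILMN_1231053 read 8.1, 8.02 and 8.12 in 67NR, 9.86, 10.14 and 10.17 in 4T07, and 9.84, 10.06 and 10.26 in 4T1. The first probe was highest in 67NR and the second lowest there, with no overlap between 67NR and either line in both. ILMN_2751948 was higher in 4T1 by 1.65 ± 0.16, and ILMN_1231053 by 1.97 ± 0.15. H2ac20 showed the same split: ILMN_1218380 fell by 0.66 ± 0.15 in 4T1 against 67NR and ILMN_1254276 was higher by 1.55 ± 0.23. H2ac19 (ILMN_1242167), also on chromosome 3, was higher by 1.61 ± 0.17. No level or direction can therefore be given to H2ac18 or H2ac20 as genes.

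**Figure D4:**
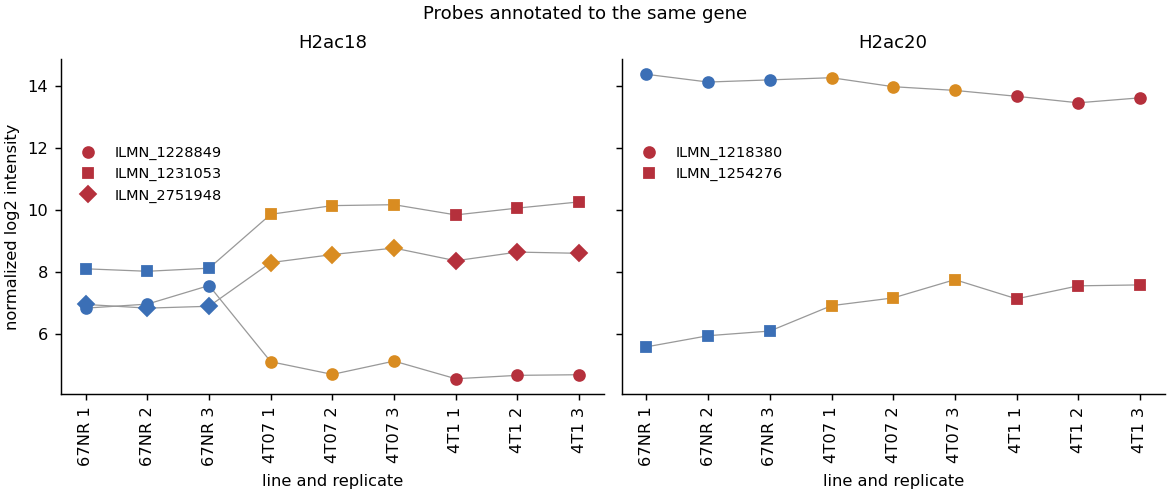
Normalized log2 intensity (y axis) on each array (x axis: line and replicate) of the probes annotated to H2ac18 (3 probes) and H2ac20 (2 probes); each marker is 1 array (blue 67NR, orange 4T07, red 4T1), and marker shapes are probes. ILMN_1228849 drops from 6.83 to 7.56 in 67NR to 4.55 to 4.68 in 4T1, while ILMN_1231053 of the same gene goes from 8.02 to 8.12 up to 9.84 to 10.26.

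H1 was read by 3 probes. H1f2 encodes a common somatic linker histone, and ILMN_2855315 read 10.79, 10.72 and 10.56 in 67NR, 12.46, 12.6 and 13.09 in 4T07, and 12.28, 12.36 and 12.5 in 4T1. The 67NR arrays were the lowest, by 1.69 ± 0.17 relative to 4T1 and 2.03 ± 0.17 relative to 4T07, and the second H1f2 probe gave 1.83 ± 0.23 and 1.8 ± 0.23. H1f5, another linker histone, had values of 5.43 to 5.84 over the 9 arrays, and the lines overlapped.

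H4 and H3 form the tetramer at the centre of the nucleosome. Of 19 H4 probes, 15 were higher past the threshold in 4T1 against 67NR (median 0.78, background 20.9%), 4 in 4T07 against 67NR (median 0.32, background 18.7%) and 7 in 4T1 against 4T07 (median 0.54, background 12%), and the rest did not pass it. The 7 became 2 without 4T07 replicate 1 or 4T07 replicate 2, 4 without 4T1 replicate 2 and 3 without 4T1 replicate 3. H4c1 (ILMN_2759159) read 9.05, 9.29 and 8.87 in 67NR, 9.17, 9.22 and 9.46 in 4T07, and 9.7, 9.81 and 10.06 in 4T1. Its 4T1 arrays were above all others, by 0.78 ± 0.16 from 67NR and 0.57 ± 0.16 from 4T07, while 67NR and 4T07 overlapped. The second difference was no longer past the threshold without 4T07 replicate 1 (0.51), 4T07 replicate 2 (0.54) or 4T1 replicate 2 (0.6). H4c8 had the highest H4 difference in 4T1 against 67NR (1.19 ± 0.17), and the H4c6 probe ILMN_1222313 differed by 1.05 ± 0.22. Both probes of H4f16 on chromosome 6 instead had their highest mean in 4T07, overlapping with 4T1 for ILMN_2985127, and ILMN_2985128, detected on no 67NR array, was at least 1.93-fold higher in 4T07 and at least 1.45-fold higher in 4T1.

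For H3, 4 of 13 probes were higher past the threshold in 4T1 against 67NR (median 0.42, background 20.9%), 1 was higher in 4T07 against 67NR (median -0.13, background 18.7%), and 6 were higher in 4T1 against 4T07 (median 0.49, background 12%), while the rest did not pass. The 4 became 2 without 67NR replicate 2 or 67NR replicate 3 and 1 without 4T1 replicate 3, the 1 became 0 without 67NR replicate 2 or 4T07 replicate 2 and 2 without 67NR replicate 1, 67NR replicate 3 or 4T07 replicate 1, and the 6 became 3 without 4T07 replicate 1. H3c7 (ILMN_2748164) read 8.31, 8.5 and 7.92 in 67NR, 7.94, 7.86 and 7.91 in 4T07, and 8.55, 8.85 and 9.09 in 4T1. H3c3 (ILMN_1229755) read 5.02, 5.44 and 5.62 in 67NR, 5.12, 4.5 and 4.76 in 4T07, and 6.29, 5.44 and 5.84 in 4T1. At both probes the 4T1 arrays lay above those of 4T07, by 0.93 ± 0.18 for H3c7 and 1.06 ± 0.24 for H3c3. The second H3c7 probe, ILMN_2925169, went the other way, with 4.61, 4.58 and 5 in 67NR, 5.43, 5.9 and 5.63 in 4T07, and 4.65, 4.87 and 5.82 in 4T1. It was detected on no 67NR array, was at least 1.43-fold higher in 4T07 than there, and overlapped between 4T07 and 4T1, so no direction can be given to H3c7 as a gene. The H3c13 probe (ILMN_2934120), with the highest mean signal of its class, read 11.34, 11.97 and 11.98 in 67NR, 11.52, 11.35 and 12.03 in 4T07, and 12.04, 11.98 and 11.77 in 4T1. These ranges overlapped between the lines, and the difference of 0.17 ± 0.22 in 4T1 against 67NR turned to -0.05 without 67NR replicate 1. All 3 H3 probes of chromosome 3 were within -0.04 to 0.17 in that comparison.

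The spread of the members within a line, which the choice of genes did not use, was uneven over the replicates. In 4T07, replicate 3 held the highest value of 44 of the 73 probes (60.3%, against 35% of all kept probes), and replicate 2 the lowest of 40 (54.8% against 30.9%). In 4T1, replicate 3 held the highest value of 39 (53.4% against 36.1%) and replicate 1 the lowest of 37 (50.7% against 32.1%). The classes differed in this: for H2B, 4T1 replicate 2 held the highest value of 11 of 16 probes and 4T07 replicate 3 that of 13. Averaged over pairs of probes, the correlation of deviations from the line means over the 9 arrays was 0.29 within H2B, 0.29 within H4, 0.15 within H2A and -0.01 between H2A and H2B, and 0 over all kept probes. These are descriptions of 9 arrays, in which probes that read the same messages share their deviations.

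The clusters hold few other measured genes. Of 45 protein-coding genes that lie between members on chromosome 13 and are no members, 2 had a kept probe. Hfe, which encodes a regulator of iron uptake, was higher than in 67NR by 0.82 in 4T1 and by 1.63 in 4T07, and Zfp184, a zinc finger gene, differed by -0.37 and -0.43 and did not pass the threshold.

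The machinery around histone supply was read from lists of genes, each by its kept probe with the highest mean, and these genes were not used to choose the members. Most genes named from these lists were picked as those with the largest differences past the threshold. Their small adjusted p-values follow from that choice and are no separate test. In the list of histone mRNA processing, 22 of 33 genes were measured, and 1 was higher and 8 lower in 4T1 against 67NR, 2 higher and 7 lower in 4T07. Over all kept probes 20.9% were higher and 22.8% lower in 4T1, and 18.7% and 20.7% in 4T07, so the share of the list that passed in either direction was near the background of 43.7% and 39.4%. The list also holds the cell-cycle genes Cdk2, Ccne1 and Ccne2, which were among the 8 lower in 4T1. Ccne1 and Ccne2 are counted in the S-phase list as well. No named probe of Slbp, Npat or Casp8ap2 was analysed here. Cdk2, the kinase that acts with cyclin E on Npat at the histone loci, read 11.11, 11.05 and 11.36 in 67NR, 10.21, 10.22 and 10.03 in 4T07, and 10.56, 10.58 and 10.72 in 4T1. It was lower than in 67NR in both lines, with differences of -1.02 in 4T07 (limma, adjusted p = 0.000116) and -0.55 in 4T1 (limma, adjusted p = 0.0075). Its partner Ccne2 (cyclin E2) read 6.86, 6.65 and 6.81 in 67NR, 6.19, 5.81 and 5.8 in 4T07, and 5.87, 5.34 and 5.59 in 4T1. Ccne2 was lower too, with differences of -1.18 in 4T1 (limma, adjusted p = 0.000159) and -0.84 in 4T07 (limma, adjusted p = 0.00218). Ccne1 (cyclin E1) differed by -0.67 in 4T1 (limma, adjusted p = 0.0168), where 1 array detected it. In 4T07 Ccne1 was not lower, with a difference of 0.26 (limma, adjusted p = 0.334). Ncbp1, a subunit of the cap-binding complex, differed by -0.9 in 4T07 (limma, adjusted p = 0.000406). The gene that was higher in both lines was Cstf2, a subunit of the cleavage stimulation factor, with differences of 0.74 in 4T1 and 0.72 in 4T07 (limma, adjusted p = 0.004 and 0.00522). Lsm10 and Lsm11, which belong to the U7 particle that cuts histone messages, differed by -0.4 (adjusted p = 0.0329) and -0.37 (adjusted p = 0.132) in 4T1, both by limma.

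Of the histone chaperones, which carry histones to DNA, 25 of 32 were measured, with 5 higher and 8 lower in 4T1 and the same numbers in 4T07 against 67NR (background 20.9% and 22.8% in 4T1, 18.7% and 20.7% in 4T07). Npm1, a nucleolar chaperone, was higher by 1.02 in 4T1 and 0.86 in 4T07 (limma, adjusted p = 0.000513 and 0.00198). Rbbp7, a histone-binding subunit of the Hat1 acetyltransferase complex, was higher by 0.58 and 1.17 (limma, adjusted p = 0.00924 and 7.71e-05), and Ipo4, an importin that carries H3 and H4, by 0.92 in 4T07 (limma, adjusted p = 0.000134). Nap1l1, a chaperone of H2A and H2B, was lower, with differences of -0.86 and -0.88 (limma, adjusted p = 0.000439 and 0.000389). It read 12.82, 12.8 and 12.64 in 67NR, 11.81, 11.89 and 11.91 in 4T07, and 12.12, 11.76 and 11.81 in 4T1, so that every 67NR array was above the rest. Mms22l, which with Tonsl reads new histones at replication forks, was lower, with differences of -0.88 and -0.96 (limma, adjusted p = 0.00388 and 0.00244).

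Of the replication-independent variants, which are made also outside S phase, mostly from polyadenylated messages, 11 of 24 were measured. In 4T1 against 67NR, 1 was higher and 3 were lower (background 20.9% and 22.8%, or 43.7% in all), and without 67NR replicate 3 the 4 became 2. H1f10, a linker histone variant, read 8.34, 8.78 and 9.36 in 67NR, 4.36, 4.43 and 4.46 in 4T07, and 4.65, 4.39 and 4.32 in 4T1, and it was detected on no array of 4T07 or 4T1. It was at least 13.7-fold lower in 4T1 and at least 13.4-fold lower in 4T07. H2az2, one of the genes of the variant H2A.Z, was lower, with differences of -0.68 and -0.98 (limma, adjusted p = 0.00465 and 0.000425). Macroh2a2, a large H2A variant, was detected on all 3 arrays of 4T07 and on none of the other lines, and it was at least 1.43-fold higher in 4T07 than in 67NR. H1f10 and Macroh2a2 passed the filter on dim probes only through the line in which they were detected. This by itself favours a difference, and no p-value is given for them. H3f3a and H3f3b, which encode the variant H3.3, differed by -0.24 to -0.06 against 67NR and did not pass the threshold in either line.

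The S-phase list holds genes of DNA replication and nucleotide supply. Of 42 listed genes 38 were measured, and 21 were lower and 17 did not pass the threshold in 4T1 against 67NR (median -0.48, background 22.8% lower), and 2 were higher and 14 lower in 4T07 (median -0.31, background 18.7% and 20.7%). The count in 4T1 became 11 without 67NR replicate 3 and 13 without 4T1 replicate 2. Rrm1, the large subunit of ribonucleotide reductase, read 9.9, 9.79 and 9.94 in 67NR, 9.35, 9.04 and 9.53 in 4T07, and 8.99, 8.61 and 8.83 in 4T1, and was lower in 4T1 with a difference of -1.07 (limma, adjusted p = 0.000218). E2f1, a factor that turns on S-phase genes, differed by -0.69 in 4T1 and 0.69 in 4T07 (limma, adjusted p = 0.0024 and 0.00274). Pcna, the sliding clamp of DNA polymerase, differed by -0.7 in 4T1 (limma, adjusted p = 0.036) and by -0.12 in 4T07 (limma, adjusted p = 0.746). Rrm1, E2f1 and Pcna were named after their values were seen, as most named genes of the other lists were picked by theirs.

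**Figure D5:**
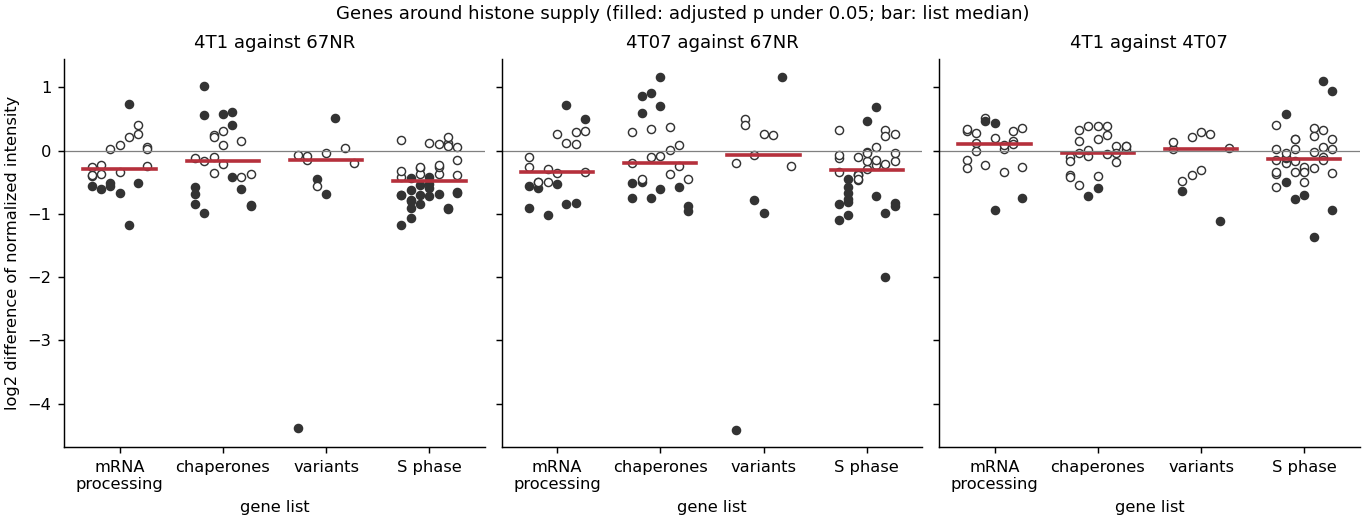
Log2 difference of normalized intensity (y axis) of the genes of 4 lists (x axis: histone mRNA processing, histone chaperones, replication-independent variants, S-phase genes), for 4T1 and 4T07 relative to 67NR and for 4T1 relative to 4T07; each point is 1 gene, filled at an adjusted p under 0.05, and the bar is the list median. The S-phase median is -0.48 in 4T1 and -0.31 in 4T07 against 67NR. Genes detected on no array of a line are drawn at their fitted value, which is not a bound; the lowest variant against 67NR is H1f10, at least 13.7-fold lower in 4T1.

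Markers of cell type differed between the lines as well, and their part in the histone values was not tested. All 5 measured genes of the mammary epithelial list were higher in 4T1 than in 67NR and 3 in 4T07 (background 20.9% and 18.7%). The mean log2 level was 4.86 to 4.88 on the 67NR arrays, 7.48 to 8.41 on those of 4T07 and 11.33 to 11.61 on those of 4T1. Krt18, Krt19 and Krt14 were detected on no 67NR array and passed the filter only through the other lines, which by itself favours a difference. In the fibroblast and pericyte list (6 of 10 measured), 1 gene was higher and 4 were lower in 4T1 (background 20.9% and 22.8%). Among the lower ones, Lum was detected on no array of 4T07 or 4T1 and passed the filter only through 67NR, which favours a difference. The mean level of that list was 7.54 to 7.8 in 67NR, 6.97 to 7.01 in 4T07 and 6.43 to 6.79 in 4T1. In the leukocyte list (5 of 10 measured) 1 was higher and 3 were lower in 4T1 (background 20.9% and 22.8%), with a mean level of 7.44 to 8.34, 8.28 to 8.58 and 8.04 to 8.14. That mean hides opposite directions. Cd74 was higher by 7.03 in 4T1, while Cd14, Lyz2 and S100a8 differed by -0.85, -2.48 and -1.69. Csf1r, detected on no 4T1 array, did not pass the threshold. Both measured erythroid genes were lower in 4T1 (background 22.8%), with a mean level of 6.5 to 7.38 in 67NR, 4.79 to 4.94 in 4T07 and 4.82 to 4.95 in 4T1. Of these, Hba-a1 was detected on no array of 4T07 or 4T1 and passed the filter only through 67NR, so its fall was favoured by the filter. The 1 measured endothelial gene, Kdr, did not pass the threshold. In sorted bulk RNA, fewer cells that express a gene and less of its RNA per cell cannot be told apart.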

How the data were processed

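The authors deposited, for 45281 probes and 9 arrays, intensities on a linear scale that are not normalized and a detection p-value for each, and, for 22834 probes, quantile-normalized log2 values. Deposited log2 values correlated with the log2 of the intensities at 0.998 or higher. No source used here names the summarising software. Intensities were corrected with normexp (limma's nec, which takes the negative controls from the detection p-values, with an offset of 16) and quantile-normalized in limma 3.58.1 (R 4.3.3). The 18856 probes detected (p under 0.05) on 3 or more arrays were fitted with lmFit and eBayes over all 9 arrays, by line, and p-values were adjusted by Benjamini-Hochberg (threshold 0.05). Member probes were tied to genes by the platform annotation, and all 51 genes were found in the reference gene table. Members, gene lists and tests were chosen with earlier results of these data known. Probes named with every array are, per comparison, the 3 largest rises and 3 largest falls among probes whose groups do not overlap. The probe of each class with the highest mean was named as well. H2bc8, ILMN_1231053 of H2ac18 and ILMN_2925169 of H3c7 were added after their values were seen. From each of the processing, chaperone and variant lists up to 4 genes per comparison were eligible, those with the largest absolute difference past the threshold. Lsm10, Lsm11, H3f3a and H3f3b were named outside this rule. Where a line detected a probe on no array, its fold is a bound against the lowest signal of a detected probe on each array. Levels of different probes were compared only to pick or name the one with the highest mean or signal, and were averaged only for the marker lists. Alternatives were the deposited values, no background correction, an offset of 50, median centring, other filters, 1 probe per gene, a fit of 2 lines, a block by replicate number, the methods' Student test, a minimum difference of 1, and each array left out. The fit was tested on simulated data. The number of arrays limits the precision. Promoter sequences were those of RefSeq, read with Python 3.11.15.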

Additional observations from a re-analysis of the deposited data

How the results depend on the processing

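The direction of the medians of all histone probes against 67NR held under the alternatives tried, but their size depended on the scale: in 4T1 it was 0.57, and 0.3 with the deposited values, 0.34 with no background correction, 0.47 with an offset of 50, 0.69 with median centring and 0.7 with the stricter filter. In 4T07 it was 0.25, and 0.1 with the deposited values and 0.11 with no background correction. Requiring a difference of at least 1 left 24 histone probes in 4T1 against 67NR and 2 in 4T1 against 4T07, and for the lists together 4, 7 and 3 genes, where 45, 41 and 15 had passed in 4T1 and 4T07 relative to 67NR and in 4T1 relative to 4T07. In 4T1 against 4T07, the methods' Student test with Benjamini-Hochberg adjustment left 6 histone probes and 9 list genes (28 unadjusted), and 25 list genes passed with the deposited values and 25 with no background correction. With 1 array left out, counts of histone probes were 47 to 56, 25 to 35 and 9 to 25 in the 3 comparisons and medians 0.46 to 0.64, 0.14 to 0.28 and -0.14 to 0.05. The list counts were then 29 to 46, 33 to 43 and 8 to 14, the lowest ones without 67NR replicate 3 (29) and without 4T1 replicate 3 (8), and 9 without 4T07 replicate 1. Of the named probes only H3c13 turned its sign, to -0.05 in 4T1 without 67NR replicate 1 (range -0.05 to 0.27) and to 0.01 in 4T07 without 4T07 replicate 2 (range -0.34 to 0.01). The causes were not tested.

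The replicate numbers did not pair the arrays: same-numbered deviations correlated at -0.18 to 0.15. With the number as a block, 56, 29 and 21 histone probes passed, with medians of 0.57, 0.25 and -0.06, and 43, 41 and 14 list genes. Leaving out shared probes (0 members were annotated to several genes) and the slide as a block (none is given) were not run.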
